A study of Mus musculus with 4 samples.

Results

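The detoxifying enzymes described here are the genes whose symbols begin with Cyp, Gst, Pon, Ces, Ugt or Aldh on the array, without the 3 retinaldehyde dehydrogenases Aldh1a1, Aldh1a2 and Aldh1a3. Members were chosen by symbol and by measured signal: a gene needed a probe at a detection p-value under 0.01 on at least 1 array, and its brightest such probe stood for it. This rule took 62 of the 168 genes with such a symbol on the array, among 9975 genes of all kinds with a detected probe. The study hybridized RNA of sorted stromal cells from mouse adipose tissue to Illumina Mouse-6 V2 BeadChips to ask how gene expression in adipose progenitor cells (APCs) depends on PPARγ, the nuclear receptor that drives fat cell formation. There were 4 libraries, all from mice aged 2 months. They comprised 2 libraries labelled PPARG null and GFP+ (null GFP+, numbers 1 and 3), 1 labelled PPARG het and GFP+ (het GFP+, number 2) and 1 labelled PPARG null and GFP− (null GFP−, number 3). All carried the strain label Black 6, whereas the study's methods give a mixed C57BL/6-129/SV background. The GFP came from AdipoTrak, in which a tTA allele at the PPARγ locus drives H2B-GFP and Cre from TRE transgenes, and live GFP+ and GFP− cells were sorted from the stromal vascular pellet. For the arrays the study names both AT-PPARγ-LOF mice, in which deletion is confined to the AdipoTrak lineage, and Sox-PPARγ-LOF mice, in which Sox2-Cre deletes in the epiblast and so in the whole body. The labels do not say which strain or which mice each library came from, so p-values measure only the spread between these libraries, which may be technical.

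Detoxification is usually described in phases. In phase I, cytochrome P450 enzymes (Cyp), carboxylesterases (Ces), paraoxonases (Pon) and aldehyde dehydrogenases (Aldh) oxidize or hydrolyse lipids, steroids, aldehydes and foreign compounds. In phase II, glutathione S-transferases (Gst) and UDP-glucuronosyltransferases (Ugt) attach glutathione or a sugar to the products, which transporters then export. These families are best known from liver, but fat tissue uses many members for endogenous lipids, retinoids, steroids and the aldehydes made by lipid peroxidation.

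The promoters of 4 members are shown. In the measurements below, Pon1 and Cyp2e1 had the largest increases and Cyp4f18 the largest decrease. Cyp1b1 is a known target of the xenobiotic receptor AHR. Cyp1a1 and Cyp1a2 were on the array and not detected. Each stretch is the 250 bases before the RefSeq start site (GRCm38.p6), written along the gene's strand. Capitals mark letters of 1 of the motifs searched on both strands. The motifs were AGGTCA and a pair of AGGTCA copies in direct repeat 1 base apart. It is this repeat that PPAR and its partner RXR bind. The others were TGACNNNGC (the core of the antioxidant response element) and GCGTG (the core of the xenobiotic response element). The stretches lie at chr6:5193947-5194196 (Pon1, minus strand), chr7:140763569-140763818 (Cyp2e1, plus strand), chr8:72009627-72009876 (Cyp4f18, minus strand) and chr17:79715062-79715311 (Cyp1b1, minus strand).
Pon1: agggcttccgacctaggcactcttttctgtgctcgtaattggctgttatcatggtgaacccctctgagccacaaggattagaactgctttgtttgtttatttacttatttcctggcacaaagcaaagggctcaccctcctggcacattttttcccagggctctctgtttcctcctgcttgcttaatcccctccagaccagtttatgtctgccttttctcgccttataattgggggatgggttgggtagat
Cyp2e1: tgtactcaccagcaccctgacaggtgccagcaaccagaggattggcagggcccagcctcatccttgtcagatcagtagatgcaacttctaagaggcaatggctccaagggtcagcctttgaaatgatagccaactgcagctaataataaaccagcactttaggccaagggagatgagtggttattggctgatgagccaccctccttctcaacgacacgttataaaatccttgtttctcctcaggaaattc
Cyp4f18: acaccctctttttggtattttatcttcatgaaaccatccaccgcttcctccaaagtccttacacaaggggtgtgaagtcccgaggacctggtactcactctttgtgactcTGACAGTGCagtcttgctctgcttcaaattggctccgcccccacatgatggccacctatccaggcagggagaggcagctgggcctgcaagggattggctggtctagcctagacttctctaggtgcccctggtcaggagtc
Cyp1b1: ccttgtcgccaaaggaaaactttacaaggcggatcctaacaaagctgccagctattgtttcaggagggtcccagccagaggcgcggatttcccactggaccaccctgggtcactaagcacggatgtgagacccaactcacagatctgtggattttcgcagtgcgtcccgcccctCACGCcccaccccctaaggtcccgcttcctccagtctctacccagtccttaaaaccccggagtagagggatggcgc
The Cyp4f18 stretch held TGACNNNGC from base -140 to -132 before the start, and the Cyp1b1 stretch held GCGTG, read on the opposite strand, from -76 to -72. None of these motifs was found in the Pon1 and Cyp2e1 stretches, which says only that these exact letters were not in this window. Across the 48 members with an entry in the RefSeq promoter table (58 windows of 300 bases), AGGTCA was found in 15.5% of windows, against 16.3% of 32851 promoters. The share was 10.3% for TGACNNNGC, against 12.4% of promoters, and 25.9% for GCGTG, against 32.4%. The AGGTCA repeat was in 0 of the 58 windows and in 0.0396% of promoters.

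Pparg, the targeted gene, ran against the genotype labels. By label, its brightest probe read 3217 and 2479 intensity units in null GFP+ libraries 1 and 3, 188 in het GFP+ and 209 in null GFP−. A second tested Pparg probe ran the same way, at 495 and 363 in null GFP+, 129 in het GFP+ and 101 in null GFP−. Where either probe lies relative to the deleted part of the gene is not known here. Xist, which female cells transcribe, read 2559 and 2371 in null GFP+, 100 in het GFP+ and 1440 in null GFP−, so genotype and sex cannot be told apart in the comparison with het GFP+. The libraries also differed in markers of other cell types. The summed intensity of 10 mast cell markers was 2149 and 2237 in null GFP+, against 74826 in het GFP+ and 75688 in null GFP−, and that of 10 neutrophil markers was 1521 and 1686, against 31322 and 30008. For 11 macrophage markers the sums were 4672 and 2340, against 23612 and 14733. The sums of 12 endothelial markers were 14697 and 13294, against 8225 and 6033. Of these, 11 were higher in null GFP+, and Tek ran the other way at 3061 and 2097, against 5293 and 3815. The sums of the 7 detected adipocyte markers were 6933 and 14712, against 905 and 873, although floating adipocytes had been removed before the sort. Each group name below therefore stands for the library so labelled, every direction is by label, and the part that sex, cell make-up or a mislabelled library has in it was not tested. In sorted pools, fewer cells of a type and less RNA per cell cannot be told apart.

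The families differed in how many genes were detected. Of the genes on the array, 18 of 23 Gst, 12 of 17 Aldh and 3 of 3 Pon genes were members, against 21 of 87 Cyp, 5 of 21 Ugt and 3 of 17 Ces genes. The share was 36.9% over the pattern genes and 52.3% over all genes on the array. The glutathione transferase and aldehyde dehydrogenase families were thus represented by most of their genes, while the P450, glucuronosyltransferase and carboxylesterase families were represented by a minority. Just inside the limit lay Aldh1b1, a mitochondrial aldehyde dehydrogenase, with a lowest detection value of 0.00962 and a top intensity of 154, and Cyp26b1, which degrades retinoic acid, with 0.00641 and 163. Just outside it lay Cyp3a13, with 0.0118 and 152, and Cyp24a1, which inactivates vitamin D, with 0.0128 and 152. Of 8 hepatocyte markers, only Apoa1 was detected, at 243 and 271 in null GFP+, 258 in het GFP+ and 277 in null GFP−.

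**Figure D1:**
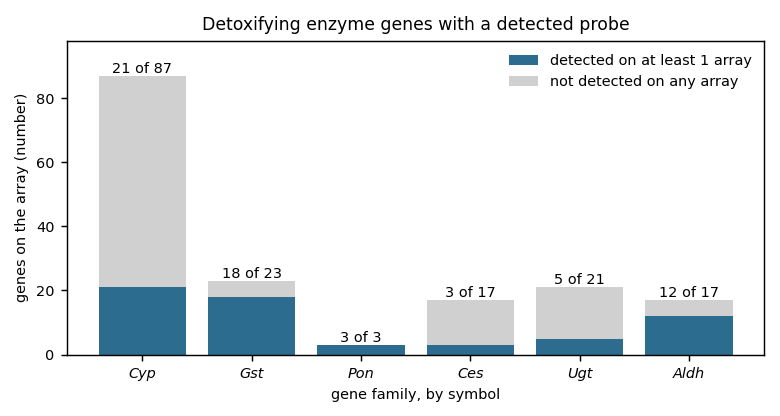
Number of genes on the array in each family (bar height), with those detected on at least 1 array in blue and the rest in grey. The 62 members are 21 Cyp, 18 Gst, 3 Pon, 3 Ces, 5 Ugt and 12 Aldh genes.

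Intensity was above the detection signal, taken as 154, in all 4 libraries for 46 members. Of the other 16, Cyp2e1, Pon1, Ces1f and Aldh1l1 were above it in both null GFP+ libraries alone, and Cyp11a1, Cyp4f18 and Aldh3a1 in het GFP+ and null GFP− alone. Such genes entered through the groups where they were bright and so had to differ, and Cyp4b1-ps2 was below the detection signal in null GFP−. Counts, shares and medians over all 62 members hold them and are descriptions only, and the adjusted p of such a gene is that of the fit over all probes, with the same limit. Where 1 group lies below the detection signal the fold is given as "at least", computed from normalized values.

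**Figure D2:**
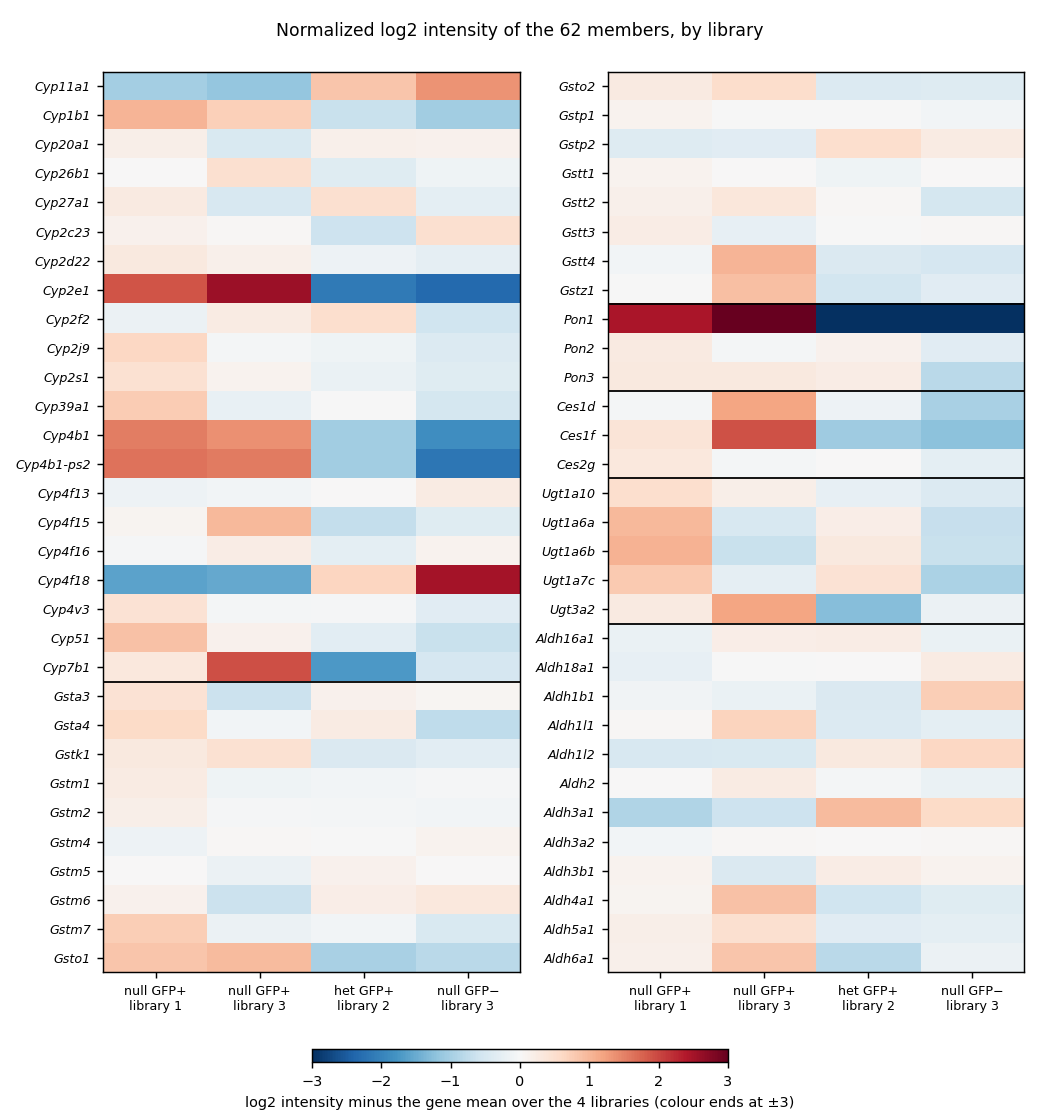
Normalized log2 intensity of each of the 62 members in each library, minus the gene's mean over the 4 libraries (red higher, blue lower, colour ends at ±3), with black lines between families. Pon1 and Cyp2e1 are the strongest red in both null GFP+ columns, and Cyp4f18 is the strongest red in the null GFP− column.

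The comparison of null GFP+ with het GFP+ cells was made by the study to ask which genes depend on PPARγ in APCs. Pparg itself runs against the labels and Xist and cell markers differ too, so the values are differences between labelled libraries. The part of PPARγ in them cannot be told apart from that of sex or cell make-up, and was not tested. By label, 5 members were higher in null GFP+ (Pon1, Cyp2e1, Cyp4b1, Cyp4b1-ps2 and Gsto1), 2 were lower (Cyp4f18 and Cyp11a1) and 55 did not pass an adjusted p of 0.05 in limma. That is 8.06% of members higher and 3.23% lower, beside 1.30% and 2.63% of all 9975 genes. Among the 46 members above the detection signal in every library, 2 were higher (Cyp4b1 and Gsto1) and 0 lower, where the shares over the 8038 such genes of all kinds were 0.722% and 1.31%. Over 2-fold by fitted difference, whatever the p, 12 members were higher and 3 lower, beside 5.59% and 6.57% of all genes. Some of these have 1 group below the detection signal and a bound under 2-fold. They are Ces1f (1.96), Ugt3a2 (1.89) and Cyp4f15 (1.13) among the higher, and Cyp11a1 (1.85) and Aldh3a1 (1.71) among the lower. The median log2 difference was 0.21 over the members, against 0.05 over all genes tested. Over the 46 members above the detection signal in every library it was 0.12, against 0.05 over such genes of all kinds. The spread came from the pair of null GFP+ libraries alone (1 residual and 4.03 prior degrees of freedom), and the single het GFP+ library was assumed to vary like them.

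Pon1, the paraoxonase known from liver and high-density lipoprotein, which hydrolyses lactones and organophosphates, had the largest difference. Its intensity was 1574 and 5514 in null GFP+ libraries 1 and 3, against 97 in het GFP+ and 115 in null GFP−. Both null GFP+ libraries lay far above the detection signal and both other libraries below it, and library 3 was well above library 1. The difference was at least 45.8-fold against each of the het GFP+ and null GFP− libraries (adjusted p = 0.0192 and 0.0230, limma). Leaving out null GFP+ library 3 gave a bound of 23.9-fold, and leaving out library 1 gave 87.6-fold. The adipocyte marker sum was also higher in library 3 than in library 1, 14712 against 6933, and its part in the Pon1 result was not tested. A second Pon1 probe was not detected on any array.

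Pon2 and Pon3, the other paraoxonases, did not follow Pon1. Pon2, a membrane-bound intracellular lactonase, read 4131 and 3286 in null GFP+, 3745 in het GFP+ and 2728 in null GFP−, so that the null GFP+ libraries lay on both sides of the het GFP+ value (log2 difference −0.02 ± 0.30, SE, adjusted p = 0.984). Pon3 read 239 and 239 in null GFP+, 232 in het GFP+ and 161 in null GFP−. Against null GFP− its log2 difference was 1.10 ± 0.27 (SE) and did not pass (adjusted p = 0.131).

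Cyp2e1, the P450 that oxidizes ethanol and acetone, read 859 and 1334 in null GFP+, against 140 in het GFP+ and 133 in null GFP−. It was above the detection signal only in the null GFP+ libraries. The difference was at least 15.8-fold against either other library (adjusted p = 0.0121 against het GFP+ and 0.0146 against null GFP−), and leaving out null GFP+ library 3 or library 1 gave bounds of 12.4-fold and 20.1-fold.

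Cyp4b1, a P450 of the fatty acid hydroxylase family that also activates several protoxins, read 775 and 701 in null GFP+, against 206 in het GFP+ and 157 in null GFP−. The null GFP+ libraries agreed closely and did not overlap with either other library. The log2 difference was 2.51 ± 0.28 (SE) against het GFP+ (adjusted p = 0.0190) and 3.32 ± 0.28 against null GFP− (adjusted p = 0.0146). A probe for its pseudogene copy Cyp4b1-ps2 gave 921 and 880 in null GFP+, 222 in het GFP+ and 152 in null GFP−. Its log2 difference against het GFP+ was 2.64 ± 0.27 (SE, adjusted p = 0.0159), and it was at least 13.0-fold higher in null GFP+ than in null GFP− (adjusted p = 0.0122). Both genes are on chromosome 4, and near-identical copies can share probe signal, so the share of each gene in the pair of results is uncertain.

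Gsto1, an omega-class transferase that reduces dehydroascorbate and methylated arsenic, was the Gst member that passed. It read 1920 and 2094 in null GFP+, against 622 in het GFP+ and 682 in null GFP−. The null GFP+ libraries differed little and lay far above the other libraries, which were close to each other. The log2 difference was 1.85 ± 0.28 (SE, adjusted p = 0.0381) against het GFP+ and 1.70 ± 0.28 (adjusted p = 0.0476) against null GFP−. Its relative Gsto2 read 190 and 209 in null GFP+, 153 in het GFP+ and 155 in null GFP− and did not pass (log2 difference against het GFP+ 0.81 ± 0.29, SE, adjusted p = 0.275).

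Cyp1b1, which oxidizes oestrogens and polycyclic hydrocarbons, read 2697 and 2205 in null GFP+, against 898 in het GFP+ and 715 in null GFP−. Both null GFP+ libraries lay above both others. The log2 difference passed against null GFP− (1.91 ± 0.29, SE, adjusted p = 0.0425) and not against het GFP+ (1.54 ± 0.29, adjusted p = 0.0723). Over 7 alternative settings of the limma fit the adjusted p against het GFP+ ranged between 0.0135 and 0.152, under 0.05 in 4 of them. The methods' t-test is not among these settings and is treated at the end.

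The 2 lower members are both P450 enzymes. Cyp4f18, which in mouse neutrophils oxidizes leukotriene B4, read 109 and 112 in null GFP+, against 222 in het GFP+ and 558 in null GFP−. It was below the detection signal in both null GFP+ libraries and highest in null GFP−. It was at least 2.09-fold lower than in het GFP+ (adjusted p = 0.0238) and at least 7.53-fold lower than in null GFP− (adjusted p = 0.0118). All 10 neutrophil markers were also lower against het GFP+, among them S100a8 at 151 and 193 in null GFP+, 11929 in het GFP+ and 11799 in null GFP−. Against null GFP−, 9 were lower. The exception was Elane, at 128 and 120 in null GFP+, 241 in het GFP+ and 115 in null GFP−. Unlike Cyp4f18, 6 of the 10 markers were higher in het GFP+ than in null GFP−, and 4 were lower. The part of neutrophil RNA in the Cyp4f18 result was not tested.

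Cyp11a1, which cuts the cholesterol side chain in the first step of steroid synthesis, read 120 and 114 in null GFP+, against 207 in het GFP+ and 256 in null GFP−. Again only the het GFP+ and null GFP− libraries were above the detection signal. It was at least 1.85-fold lower than in het GFP+ (adjusted p = 0.0354) and at least 2.64-fold lower than in null GFP− (adjusted p = 0.0223), from 1 detected probe of 3. Over the same 7 settings of the limma fit its adjusted p against het GFP+ ranged between 0.0186 and 0.0760, under 0.05 in 4 of them. It did not pass the methods' t-test after adjustment. Mast cell markers differed between the same libraries, with Cpa3 at 169 and 135 in null GFP+, 17932 in het GFP+ and 17212 in null GFP−, and their part in the Cyp11a1 result was not tested.

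**Figure D3:**
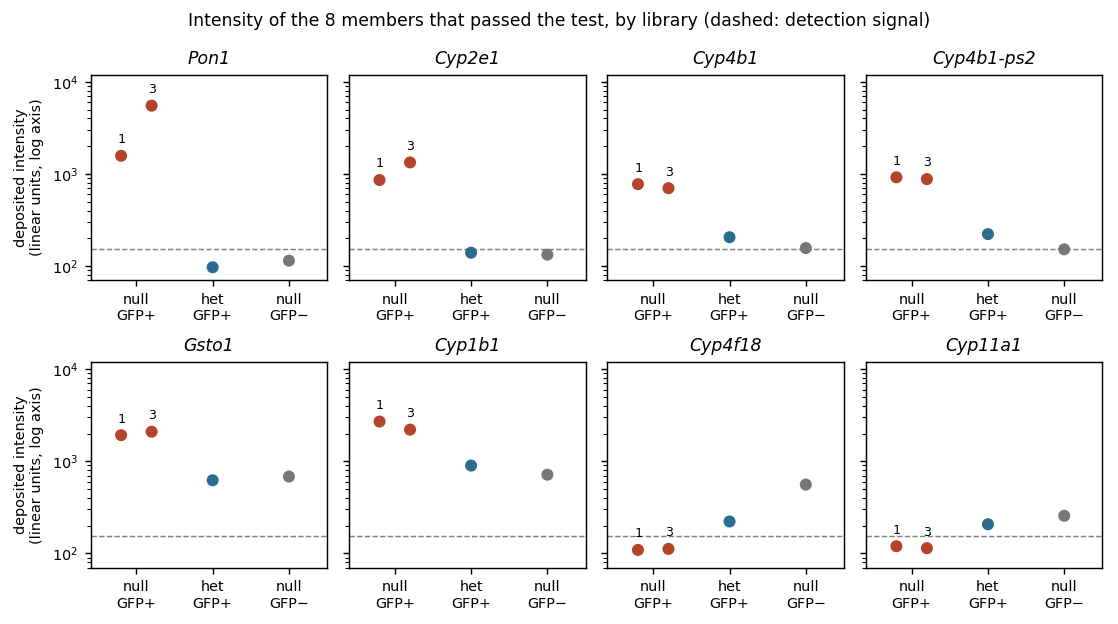
Deposited intensity (log axis) in each library for the 8 members that passed against het GFP+ or null GFP−. Red points are null GFP+ libraries 1 and 3, blue is het GFP+, grey is null GFP−, and the dashed line is the detection signal of 154. The null GFP+ points lie above the other libraries for 6 genes and below the line for Cyp4f18 and Cyp11a1.

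Most glutathione transferases did not pass. Of 18 Gst members, 1 was higher against het GFP+, 0 were lower and 17 did not pass, beside 1.30% higher and 2.63% lower over all genes. The median log2 difference was 0.14. Gstm2, a mu-class enzyme, read 19387 and 16781 in null GFP+, 16589 in het GFP+ and 16440 in null GFP−, with log2 differences of 0.12 ± 0.28 (SE) against het GFP+ and 0.13 ± 0.28 against null GFP−. Gstm1 read 8166 and 6338 in null GFP+, 6456 in het GFP+ and 6699 in null GFP−. Gstp1, the pi-class enzyme, read 5369 and 4926 in null GFP+, 4986 in het GFP+ and 4693 in null GFP−. For Gstm1 and Gstm2 the group differences were no larger than that between the null GFP+ libraries, and Gstp1 had log2 differences of 0.05 ± 0.28 (SE) against het GFP+ and 0.13 ± 0.28 against null GFP−. Gstp2 had the most negative log2 difference of the family against het GFP+, with 1022 and 1045 in null GFP+, 1804 in het GFP+ and 1527 in null GFP−, and did not pass (−0.86 ± 0.27, SE, adjusted p = 0.225). The Gstm and Gstp genes are families of related copies, so signal from one may reach another's probe. How far it does was not tested.

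The aldehyde dehydrogenases likewise held no member that passed, with 0 of 12 in either direction against het GFP+ in limma. The median log2 difference was 0.07. At an unadjusted p under 0.05, 2 were higher and 2 lower, beside 790 and 899 of all 9975 genes. Aldh2, the mitochondrial enzyme that clears acetaldehyde, read 16685 and 19727 in null GFP+, 15945 in het GFP+ and 14399 in null GFP−. Aldh3a2, the fatty aldehyde dehydrogenase, read 2288 and 2468 in null GFP+, 2452 in het GFP+ and 2457 in null GFP− (log2 difference against het GFP+ −0.05 ± 0.27, SE). Both Aldh2 values in null GFP+ lay above the other libraries, by a log2 difference of 0.19 ± 0.29 (SE) against het GFP+ that did not pass (adjusted p = 0.825), and the Aldh3a2 values overlapped. The ends of the family were Aldh6a1, of valine breakdown, at 413 and 611 in null GFP+, 258 in het GFP+ and 351 in null GFP− (1.30 ± 0.38, SE, adjusted p = 0.198), and Aldh3a1, an aldehyde dehydrogenase known from cornea and tumours. Aldh3a1 read 114 and 125 in null GFP+, both below the detection signal, against 198 in het GFP+ and 174 in null GFP−. It missed the threshold against het GFP+ (adjusted p = 0.0553, at least 1.71-fold lower in null GFP+), and passed under 2 alternative settings. Aldh1b1 read 124 and 119 in null GFP+, 110 in het GFP+ and 154 in null GFP−, not above the detection signal in any library.

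The carboxylesterases gave no passing member, but the 3 differed in how far the null GFP+ libraries stood apart. Ces1d, a triacylglycerol hydrolase of fat tissue, read 1199 and 2736 in null GFP+, 1130 in het GFP+ and 683 in null GFP−. Null GFP+ library 1 was close to het GFP+ and library 3 was well above it (log2 difference against het GFP+ 0.72 ± 0.56, SE, adjusted p = 0.622). Ces1f, a related esterase, read 164 and 299 in null GFP+, 107 in het GFP+ and 96 in null GFP−, with a bound of 1.96-fold against each (adjusted p = 0.199 and 0.168). Ces2g read 3383 and 2628 in null GFP+, 2736 in het GFP+ and 2250 in null GFP−, overlapping het GFP+.

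Among the glucuronosyltransferases, 4 of the 5 members belong to the Ugt1a locus, whose transcripts share their last exons. Where these probes lie is not known here, so it is uncertain how far each reads its own transcript. The probe named for Ugt1a10 was the brightest, with 10506 and 8402 in null GFP+, 6301 in het GFP+ and 5647 in null GFP− (log2 difference against het GFP+ 0.58 ± 0.30, SE, adjusted p = 0.445). Ugt1a6b read 1365 and 486 in null GFP+, 852 in het GFP+ and 485 in null GFP−, so the null GFP+ libraries spanned het GFP+. Ugt1a7c did the same, with 364 and 222 in null GFP+, 305 in het GFP+ and 173 in null GFP−. Ugt3a2, a glycosyltransferase gene outside that locus, read 177 and 254 in null GFP+, 114 in het GFP+ and 154 in null GFP−. Its bound against het GFP+ was 1.89-fold and did not pass (adjusted p = 0.107).

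Of the 16 P450 members that did not pass against het GFP+, the one with the largest difference was Cyp7b1, which hydroxylates oxysterols. It read 555 and 1515 in null GFP+, 205 in het GFP+ and 354 in null GFP−. Both null GFP+ libraries were above both others, but they differed from each other by over 2-fold (log2 difference against het GFP+ 2.85 ± 0.68, SE, adjusted p = 0.126). Cyp27a1, the sterol 27-hydroxylase, read 1975 and 1214 in null GFP+, 2276 in het GFP+ and 1361 in null GFP−, and its 3 tested probes all had a negative log2 difference against het GFP+. Cyp51, of cholesterol synthesis, read 281 and 204 in null GFP+, 175 in het GFP+ and 157 in null GFP−. Cyp26b1 read 144 and 163 in null GFP+, 130 in het GFP+ and 139 in null GFP−, near or below the detection signal throughout.

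**Figure D4:**
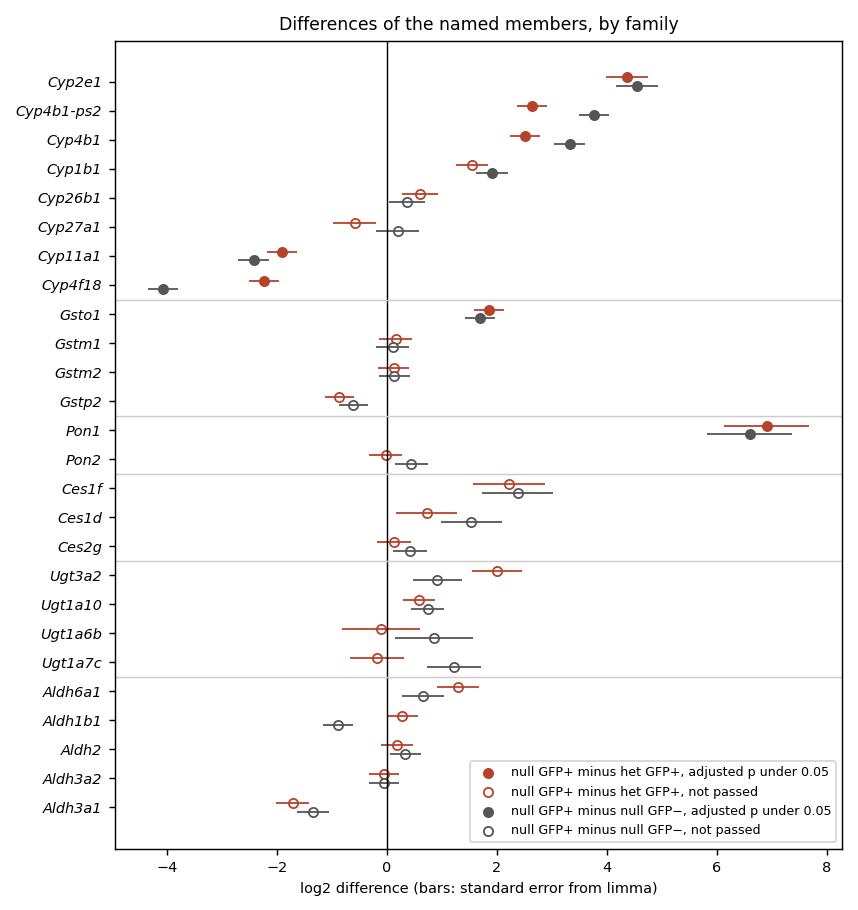
Log2 difference of the named members against het GFP+ (red) and against null GFP− (grey), by family, with standard errors from limma as bars. Filled points passed an adjusted p of 0.05. They are the P450 members at both ends of the Cyp block, Gsto1 and Pon1, while the Ces, Ugt and Aldh blocks hold open points alone.

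The null GFP+ libraries were also set against the null GFP− library, a comparison that shares both null GFP+ libraries with the one above. By label, 6 members were higher (those 5 and Cyp1b1), 2 were lower (Cyp4f18 and Cyp11a1) and 54 did not pass, beside 1.31% of all genes higher and 2.66% lower. Over 2-fold by fitted difference, 13 were higher and 4 lower, beside 5.43% and 7.31% of all genes. Among them the bound was under 2-fold for Ces1f (1.96, higher) and Aldh3a1 (1.31, lower). Among the 46 members above the detection signal in every library, 3 were higher and 0 lower, beside 0.834% and 1.21% of such genes of all kinds. The median log2 difference of members was 0.63, against 0.02 over all genes. Over those 46 members it was 0.47, against 0.03 over such genes of all kinds. By family the median was 0.63 for Cyp, 0.13 for Gst, 1.10 for Pon, 1.53 for Ces, 0.92 for Ugt and 0.08 for Aldh. Both null GFP+ libraries lay above null GFP− for 42 members, below it for 12 and on both sides of it for 8, where 39.9% of all genes were above and 34.9% below. Against het GFP+ they lay above for 33, below for 13 and on both sides for 16, where 42.7% of all genes were above and 34.0% below.

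Comparing het GFP+ with null GFP−, 0 of 62 members and 0 of 9975 genes passed in limma. At an unadjusted p under 0.05, 3 members were higher in het GFP+ and 3 lower, beside 149 and 198 of the 9975 genes. Each of these groups is 1 library, with a spread borrowed from null GFP+. By fitted difference, Cyp2f2, Cyp4b1-ps2, Gsta4, Pon3 and Ugt1a7c were over 2-fold higher in het GFP+, beside 1.26% of all genes. Cyp2c23, Cyp4f18, Cyp7b1, Ugt3a2 and Aldh1b1 were over 2-fold lower, beside 1.79%. Aldh1b1 was below the detection signal in both libraries, so no fold can be stated for it. Ugt3a2 was below it in het GFP+ and Cyp4b1-ps2 in null GFP−, with bounds of 1.00-fold and 2.10-fold. The largest was Cyp4f18 (222 in het GFP+ and 558 in null GFP−, log2 difference −1.85 ± 0.31, SE, adjusted p = 0.581).

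Within the null GFP+ pair, the median absolute log2 difference of library 3 and library 1 was 0.37 over members and 0.24 over all genes tested, as a description of this pair. Cyp7b1, Gstt4, Pon1, Ces1d and Ces1f were over 2-fold brighter in library 3, where 258 of all 9975 genes were. Gsta3, Ugt1a6a, Ugt1a6b and Ugt1a7c were over 2-fold brighter in library 1, where 136 of all genes were. Gstt4 was below the detection signal in library 1. The 7 adipocyte markers were brighter in library 3 by a median of 1.14 on the log2 scale, with Adipoq at 819 in library 1 and 3345 in library 3. The median over the 11 macrophage markers was −0.73, and all but Fcgr1 were dimmer in library 3. Fcgr1 was below the detection signal in both libraries (112 in library 1 and 113 in library 3). The part of either in these differences was not tested.

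**Figure D5:**
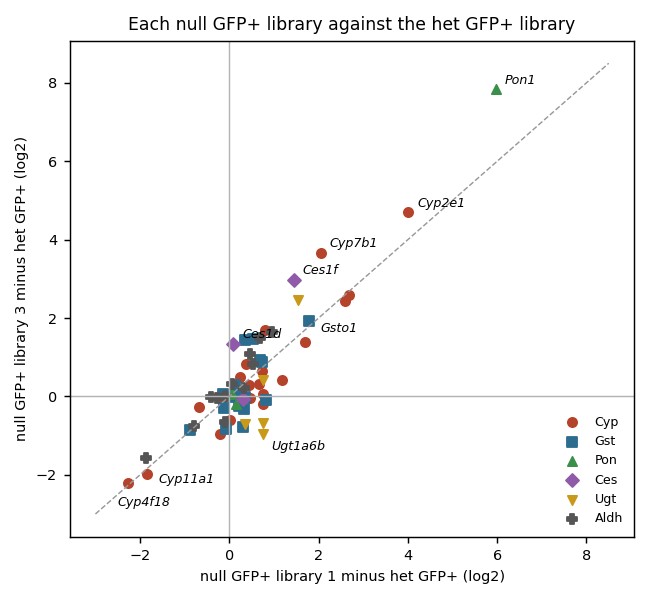
Normalized log2 difference from the het GFP+ library for each member, in null GFP+ library 1 (horizontal) and library 3 (vertical), coloured by family, with equality dashed. Pon1 lies at 5.97 and 7.84, the farthest from the origin, and the Ugt1a6b point lies below the dashed line.

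Genes that work beside these enzymes were counted from lists of partners. Of 21 detected phase I partners, 1 was higher against het GFP+ and 1 lower, where 1.30% of all genes were higher and 2.63% lower. Ephx2, the soluble epoxide hydrolase that acts on P450 epoxides of fatty acids, read 630 and 889 in null GFP+, 201 in het GFP+ and 199 in null GFP− (log2 difference against het GFP+ 2.60 ± 0.35, SE, adjusted p = 0.0305). Cbr2, a carbonyl reductase, read 195 and 208 in null GFP+, against 1559 in het GFP+ and 1416 in null GFP− (−3.76 ± 0.28, SE, adjusted p = 0.0102). Both genes separated the null GFP+ libraries from the others, in opposite directions. Against null GFP−, Adh1, an alcohol dehydrogenase of ethanol and retinol, was also higher (6976 and 7925 in null GFP+, 2336 in null GFP−, log2 difference 1.71 ± 0.28, SE, adjusted p = 0.0490).

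Of 15 detected phase II and glutathione partners, 0 were higher against het GFP+, beside 1.30% of all genes. Lower was 1 partner, beside 2.63% of all genes. This was Sult5a1, a sulfotransferase, at 225 and 250 in null GFP+, 638 in het GFP+ and 537 in null GFP− (−1.92 ± 0.29, SE, adjusted p = 0.0395). Of 11 detected xenobiotic and oxidant sensors and 3 efflux transporters, 0 passed in either direction against het GFP+ in limma. At an unadjusted p under 0.05, 3 sensors and 0 transporters were higher, beside 790 of all 9975 genes. Nfe2l2 (NRF2), which binds the antioxidant element, read 400 and 281 in null GFP+, 451 in het GFP+ and 325 in null GFP−. Nr1h3 (LXRα), a sterol receptor, read 1487 and 1585 in null GFP+, 806 in het GFP+ and 600 in null GFP− and did not pass against either (adjusted p = 0.167 and 0.0634).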

How the data were processed

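Linear-scale probe intensities had been deposited by the authors, normalized by a method not given in the sources used here, and a second table with a detection p-value per probe and array. Sorted intensities of the 4 arrays differed by at most 0.380% from their mean. The second table has 4 signal columns whose names fit no label, and these were left out. The deposited detection p-values were used only without regard to column order. The members and lists were chosen with earlier results of these data known.

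Intensities were background-corrected (normexp fitted to the shared distribution with the detection p-values, offset 16), put on the log2 scale and quantile normalized with limma 3.58.1 in R 4.3.3. Of 45281 probes, 34885 had 1 gene symbol. Tests covered the 17379 probes detected (p under 0.01) on 1 array or more, and the brightest stood for each of 9975 genes. Libraries were compared with lmFit and eBayes over 3 groups, two-sided, and p-values were Benjamini-Hochberg adjusted across those probes. The fit was checked on simulated data. Named genes were the members that passed, the 2 brightest and the extreme members of each family and those next to the detection limit. Others (Pon3, Gsto2, Gstp1, Cyp7b1, Cyp51 and the partner genes) were picked after their values were seen. Proteins were not analysed here. The alternatives covered background correction, offset, variance model, filter, probe choice, test, libraries fitted and each null GFP+ library left out.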

Additional observations from a re-analysis of the deposited data

How the results depend on the processing

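With no filter on dim probes, 0 members passed in either direction in either null GFP+ comparison, and the same held for the methods' t-test once Benjamini-Hochberg adjusted, which sets 2 libraries against 1. Unadjusted, and with over 2-fold required, the methods' t-test called 3 members higher against het GFP+. Without background correction, and with an offset of 50, 1 member was lower against het GFP+ in place of 2, since Cyp11a1 missed the threshold (adjusted p = 0.0719 and 0.0511). Against het GFP+, adjusted p-values of the called members without the filter lay between 0.0543 (Cyp4b1-ps2) and 0.145 (Pon1). The mean over all probes of a gene turned the sign of 3 differences near 0: Ces2g against het GFP+ (−0.0087), and Aldh3a2 (0.060) and Gstm2 (−0.012) between het GFP+ and null GFP−. All other counts of members called stayed within 1.5 times. Among all genes, the calls against het GFP+ were 130 higher and 262 lower, and with no filter 16 and 40, without background correction 234 and 359, and with an intensity trend 238 and 351. Against null GFP− they were 131 and 265, and with no filter 0 and 0.

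Leaving out 1 null GFP+ library leaves no residual degrees of freedom, so no test was made. Members over 2-fold by difference of means against het GFP+ then numbered 10 to 16 higher and 3 lower. Against null GFP− they numbered 16 higher without either library and 4 lower. No paired analysis was possible because the groups share fewer than 2 replicate numbers. The number of arrays limits every value, and signal near background limits small differences.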
